A study of Rattus norvegicus with 56 samples.

Results

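The hippocampus of old rats with poor spatial memory was compared between animals given intermittent theta burst stimulation (iTBS) and animals given a sham procedure. iTBS is a patterned form of transcranial magnetic stimulation, in which short bursts of magnetic pulses are delivered through a coil over the head. The comparison rests on 7 hippocampus arrays of the 56 in the series, chosen by title: 4 aged-impaired (AI) Sham animals and 3 AI iTBS animals, each with the first array of its hippocampus. All 7 were male Long-Evans rats of 26 to 27 months that had learned a water maze less well than young rats. Both groups received isoflurane, dexmedetomidine and, after the session, the reversing agent Antisedan. The coil was held close above the skull for iTBS and well away from the head for sham. Dorsal hippocampus beneath the coil was taken 48 h later, so that each value is the RNA of a mixed tissue from 1 animal, in which fewer cells of a type and less RNA per cell cannot be told apart.

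The hippocampus, needed for spatial memory, is built from the pyramidal neurons of the CA fields and the granule neurons of the dentate gyrus. In old rats the tissue between these neurons includes microglia, the resident immune cells, which read damage through receptors such as Trem2, and astrocytes, which respond to injury with genes such as Gfap and Serpina3n. Interferon-induced genes and class II major histocompatibility (MHC) genes are further arms of the immune response. Immediate early genes such as Arc and Fos are switched on by neuronal activity within minutes to hours, well before the time sampled here.

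Markers of the tissue were read against the parietal cortex. Of 16 CA field genes, 9 were higher in hippocampus than in the parietal cortex of the same animal in all 7 AI rats, and all 7 cortex genes measured were higher in cortex in all 7. Fibcd1, a CA1 marker, was higher in hippocampus by 3.93 on the log2 scale on average, with a range of 3.23 to 4.37 over the animals. C1ql2, a dentate marker, was higher by 4.17. The CA field marker Tyro3 was higher in cortex in all 7 animals. Of 8 dentate markers, 2 were higher in hippocampus in all 7 animals, while Prox1, Lct and Pdzd2 had mean differences of 0.02, 0.07 and -0.36. Of choroid plexus genes, which mark the tissue lining the neighbouring ventricle, all 14 were detected in at least 1 of the 7 arrays, and they varied widely between animals. Their mean level was 2.41 in sham animal 1 and 1.51 in sham animal 3, against -0.20 and -0.22 in sham animals 2 and 4, and it was 1.01, -0.84 and 0.45 in iTBS animals 1, 2 and 3.

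Levels are given as normalized log2 signal. The log2 signal of an array was centered on its mean and scaled to a common spread, so that 0 is the average probe of an array and a difference of 1 unit is about a doubling of signal. Between 62.7% and 67.1% of probes were well above background on the 7 arrays. Sham animal 1 and iTBS animal 1 lay on the same slide and the other 5 arrays on another, so each slide held both groups. A second array of iTBS animal 2 resembled its first array more than that of any other animal (r = 0.48 over 500 probes that vary between animals, against 0.25 for the next). The repeat cortex array labelled as this animal did not resemble its own first cortex array most. It was closest to the first cortex array of sham animal 2 (r = 0.58, against 0.35 for the next), and whether a label is wrong, and which, was not settled by these data. Of all 24 hippocampus arrays, 14 were closest to the cortex array labelled as their own animal. iTBS effects that rest on cortex are therefore given below with and without sham animal 2 and iTBS animal 2. In hippocampus the median probe differed by 0.11 between the first and repeat array of iTBS animal 2 and by 0.27 between animals of the same AI group.

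No probe distinguished AI iTBS from AI Sham animals after adjustment for multiple tests. Of 32417 probes tested, 0 (0%) had a limma adjusted p under 0.05, and the smallest adjusted p was 0.959. At an unadjusted p under 0.05 there were 710 probes, or 2.19%, of which 324 were higher and 386 lower after iTBS. That split was 413 and 325 with quantile normalization and 445 and 186 after another background correction. The difference of the median probe was 0.115 in absolute value, its standard error 0.20 and its 95% interval 0.41 to either side, so that differences of this usual size were not detectable with 4 and 3 animals. All gene differences below are therefore descriptions of these 7 animals, and none passed the adjusted test: the adjusted p was 1.00 for each gene named below except Or2b11.

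With 1 probe for each of 13354 named genes, 58.4% had a higher mean after iTBS. Every iTBS animal lay above every Sham animal for 1.69% of these genes, and below every Sham animal for 0.929%. At an unadjusted p under 0.05, 1.15% were higher and 0.921% lower. These shares are the background for the gene groups that follow. Members of a group can move together and are not independent measurements.

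The 10 leading genes of the higher side, by unadjusted p, were Trem2, Serpina3n, Ccl3, Lgmn, Zfp111, Rgr, Tvp23b, Vcam1, Irak4 and Tk1. Trem2, a microglial receptor for lipids and cell debris, measured 5.93, 5.70, 5.79 and 5.83 in sham animals 1 to 4 and 6.24, 6.09 and 6.21 in iTBS animals 1 to 3. The difference was 0.37 (SE 0.11). Serpina3n, a protease inhibitor made by reactive astrocytes, measured -0.93, -1.72, -1.29 and -1.37 in the Sham animals. In the iTBS animals it measured 0.59, -0.80 and 0.32, a difference of 1.36 (SE 0.40), with iTBS animal 2 only just above the highest Sham animal. Ccl3, a chemokine of microglia and macrophages, measured -0.12, -0.52, 0.06 and -0.02 after sham and 0.74, 0.52 and 0.60 after iTBS. That difference was 0.77 (SE 0.24), and the 3 iTBS animals lay close together.

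The other 7 genes differed by less than Serpina3n and Ccl3. Lgmn, a lysosomal protease, was higher by 0.34 (SE 0.11). Tk1, thymidine kinase of dividing cells, was higher by 0.36 (SE 0.13), although the other probe of this gene was lower by 0.37, so the probes of Tk1 disagree. Rgr was higher by 0.56 and Tvp23b by 0.57, each with an SE of 0.20. The zinc finger gene Zfp111 was higher by 0.29 (SE 0.10), with a second probe higher by 0.08. Vcam1, an adhesion molecule for leukocytes, was higher by 0.47 (SE 0.17), and Irak4, a kinase of Toll-like and interleukin-1 receptor signalling, by 0.45 (SE 0.16).

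Chosen in the same way, the 10 leading genes of the lower side, by unadjusted p, were Or2b11, Lrrc32, Apoc1, Foxd4, Alox5, Actg2, Akap17b, Clec1b, Trim44 and Btnl5. Or2b11, an olfactory receptor gene, had the smallest p of all named genes well above background on the 7 arrays. Its levels were 2.02, 2.59, 2.56 and 2.56 in Sham animals and 0.98, 1.88 and 0.36 in iTBS animals, a difference of -1.36 (SE 0.29, adjusted p = 0.959). Apoc1, an apolipoprotein, measured 5.82, 6.12, 6.50 and 5.83 after sham and 5.62, 4.99 and 4.66 after iTBS. The difference was -0.98 (SE 0.26) and a second Apoc1 probe gave -1.0, while iTBS animal 1 lay only 0.20 under sham animal 1 on their shared slide. Lrrc32, which holds latent TGF-beta at the cell surface, measured 3.31, 3.25, 4.10 and 3.40 after sham and 2.77, 2.81 and 2.94 after iTBS, a difference of -0.68 (SE 0.17). Alox5, the 5-lipoxygenase that starts leukotriene synthesis, measured 1.25, 1.05, 1.17 and 1.42 after sham and 0.32, 1.02 and 0.70 after iTBS. It was lower by 0.54 on average (SE 0.16), with iTBS animal 2 nearly level with sham animal 2.

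Of the rest of the lower side, Clec1b, a receptor of platelets and myeloid cells, differed by -1.34 (SE 0.42) and by -1.86 on a second probe. Actg2, an actin of smooth muscle, differed by -1.35 (SE 0.42) and by -1.20 on a second probe. The forkhead gene Foxd4 differed by -0.52, Akap17b by -0.74, Btnl5 by -0.75 and Trim44 by -0.25. In Akap17b the groups barely separated, at 2.81 in iTBS animal 1 and 2.82 in sham animal 1.

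**Figure D1:**
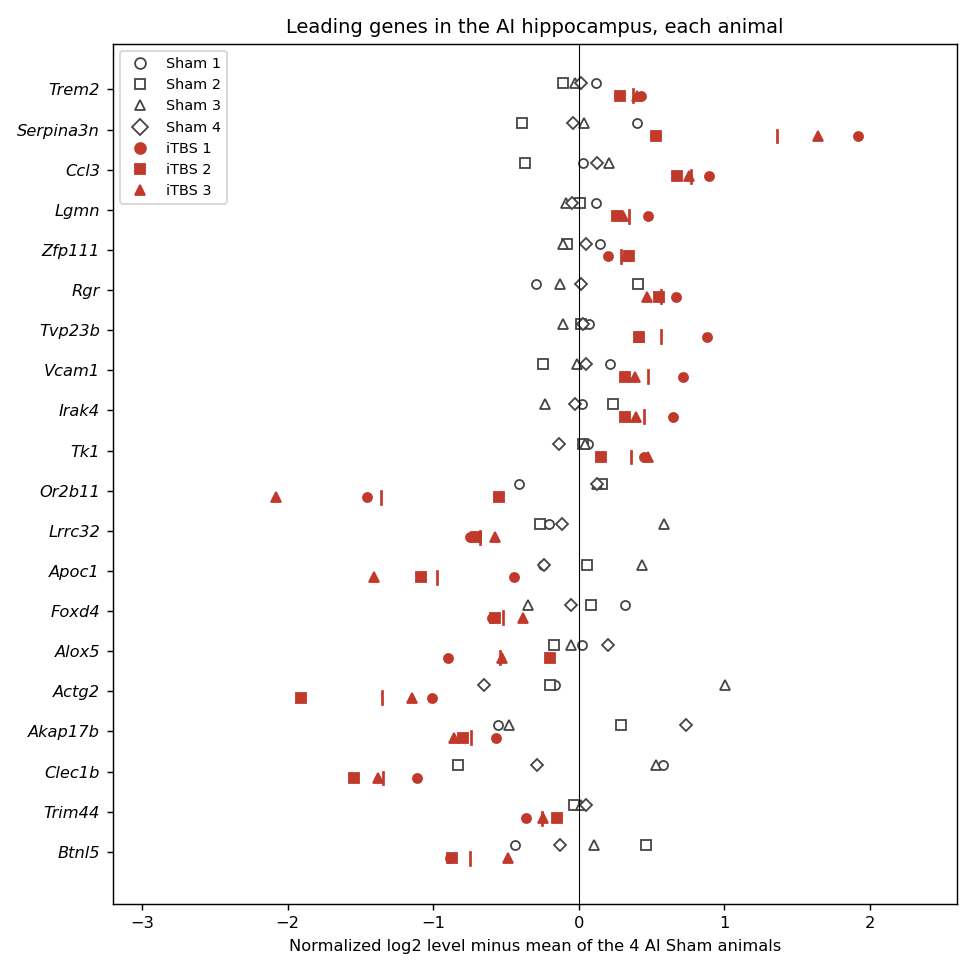
Normalized log2 level of the 10 leading higher and 10 leading lower named genes in each animal (x axis, minus the mean of the 4 AI Sham animals; open symbols Sham, red symbols iTBS, the red line the iTBS mean). The genes were chosen because the 2 groups do not overlap, and Serpina3n and Or2b11 show the widest spread among iTBS animals.

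Few of the 13354 named genes tested were detected in 1 group alone. On all 3 iTBS arrays and no Sham array, 2 were well above background, and 4 on all 4 Sham arrays and no iTBS array. As the genes below were picked by this split, the direction of their values follows from it. Pla2g2a, a secreted phospholipase, was of the second kind, with -1.71, -1.95, -0.91 and -2.61 after sham and -3.19, -3.56 and -3.13 after iTBS. It was at least 2.48-fold lower after iTBS when the unlit arrays were set to the lowest signal still well above background (SE of the fitted difference 0.43). Apool2 and Spaca3 were likewise at least 1.53-fold and 1.39-fold lower. Ly6g6e was at least 2.79-fold higher after iTBS, but this came from iTBS animal 2, at 0.69, while the other iTBS animals measured -2.50 and -2.48. Magea13 was at least 1.85-fold higher.

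Microglia genes were the group with the most members higher in every iTBS animal. Of 31 measured, 25 had a higher mean after iTBS, against 58.4% of all genes, and the median difference was 0.27, against 0.03 for all genes. In 6 of them every iTBS animal lay above every Sham animal (background 1.69%), and in none below. They were Trem2, its signalling partner Tyrobp, the receptors Gpr34 and P2ry13, the protease Ctss and the Fc receptor chain Fcer1g. Tyrobp measured 6.39, 6.10, 6.45 and 6.34 after sham and 6.68, 6.46 and 6.74 after iTBS, a difference of 0.31 (SE 0.16). Ctss measured 8.06, 7.85, 7.96 and 7.96 after sham and 8.27, 8.14 and 8.19 after iTBS, a difference of 0.24 (SE 0.13).

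At an unadjusted p under 0.05, 5 of the 31 microglia genes were higher (background 1.15%) and 0 lower (background 0.921%). All of these except Trem2 had overlapping groups. Gpnmb, a glycoprotein of lipid-laden phagocytes, was higher by 0.45 (SE 0.17), and P2ry12, the purinergic receptor of resting microglia, by 0.37 (SE 0.15). Ly86 was higher by 0.38 and Fcgr3a, an Fc receptor, by 0.65. Other defining microglia genes did not share this direction. Cx3cr1, the fractalkine receptor, differed by 0.01, Cd68 by -0.01, C1qa by -0.01 and Tmem119 by -0.08. The mean level of the list was 3.25, 2.95, 3.29 and 2.97 in the Sham animals and 3.55, 3.19 and 3.28 in the iTBS animals, so the groups overlapped for the list as a whole. The median difference was 0.23 within the slide of 5 animals and 0.30 within the slide of 2, and it was 0.14 without iTBS animal 1.

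MHC class II genes had the highest median difference of the 32 lists, 0.38, with 7 of 8 members higher and 0 of 8 at an unadjusted p under 0.05. Cd74, the invariant chain that escorts class II molecules, measured 4.19, 3.60, 4.58 and 3.97 after sham and 5.24, 4.16 and 5.04 after iTBS. The difference of 0.73 had an SE of 0.57, and iTBS animal 2 lay among the Sham animals. RT1-Da, a class II alpha chain, measured 2.16, 1.27, 2.46 and 1.82 after sham and 3.55, 1.82 and 2.65 after iTBS (difference 0.75, SE 0.64). RT1-DOb was the member with a lower mean, at -0.34. Without iTBS animal 1 the median of the list was 0.13.

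Interferon-induced genes had a higher mean after iTBS in 31 of 36 cases, with a median difference of 0.21, and in 0 of them were all iTBS animals above all Sham animals. Ifi47, an interferon-inducible GTPase, was higher by 0.92 (SE 0.37) and Oas1a, an antiviral oligoadenylate synthetase, by 0.56 (SE 0.25). Irf7, a transcription factor of the interferon response, measured 2.36, 2.71, 2.91 and 3.09 after sham and 3.19, 2.31 and 3.47 after iTBS. Its iTBS animals were thus both the lowest and the highest of the 7. The mean level of the whole list was 2.95, 2.22 and 2.53 in iTBS animals 1 to 3, against 2.26 to 2.48 in Sham animals. The median was 0.02 within the slide of 5 animals, 0.52 between the 2 animals of the other slide, and 0.03 without iTBS animal 1.

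Sequence upstream of these genes is shown because interferon-induced genes are read by factors that bind the interferon-stimulated response element, and microglia genes by PU.1. The letters GAAA, any 2 bases and GAAA again, on either strand, occurred in the 250 bases before the start of 19 of 28 interferon-induced genes with a RefSeq promoter (67.9%), against 3.29% of 27457 promoters of the GRCr8 assembly. The PU.1 core letters GAGGAAGT occurred in 4 of 18 microglia promoters (22.2%), against 2.04% of all. Matching letters are a description of the sequence and not a measured site. Stretches around the matches follow, 5′ to 3′ on the strand of the gene with the matching letters of either strand in capitals, for Oas1a (chr12:41330395-41330465, plus strand, 2 overlapping matches), Irf7 (chr1:205800053-205800122, minus strand) and Fcgr3a (chr13:85782550-85782617, plus strand).
Oas1a: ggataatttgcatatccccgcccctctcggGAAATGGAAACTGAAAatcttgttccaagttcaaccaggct
Irf7: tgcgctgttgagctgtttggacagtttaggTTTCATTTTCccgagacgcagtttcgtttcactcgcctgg
Fcgr3a: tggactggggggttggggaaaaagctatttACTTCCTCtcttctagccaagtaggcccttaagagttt

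MHC class I genes were higher in 14 of 15 cases, by a median of 0.10, but within the slide of 5 animals in 8 of 15, by a median of 0.0071. RT1-CE7 was higher by 0.38 (SE 0.19) and RT1-S3 by 0.43 (SE 0.22), while B2m, the shared light chain, differed by 0.01. As class I genes are near-identical copies, their probes may share signal. Complement genes were split, with 14 of 22 higher and a median of 0.05 that was -0.02 without sham animal 2. Cfd, the factor D protease of the alternative pathway, differed by -0.62 (SE 0.28) and Cd55, a complement inhibitor, by -0.48 (SE 0.39). Toll-like receptor genes were higher in 9 of 10 cases by a median of 0.06, with 0 at an unadjusted p under 0.05. Within the slide of 5 animals 2 of 10 were higher and the median was -0.09, against 0.44 between the 2 animals of the other slide, and without iTBS animal 1 it was -0.12. Ly96, a partner of Tlr4, differed by 0.21 and Tlr7 by 0.43.

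Chemokine genes were about evenly divided, 12 of 27 being higher. Beside Ccl3, the ligand Ccl17 was higher by 0.57 (SE 0.23). Ccl21, a lymphoid chemokine, differed by -1.47 (SE 0.57), but 1 Sham animal stood apart at -0.23 while the other 3 measured -2.58, -2.69 and -2.96. Only 2 Sham arrays and 1 iTBS array were well above background for Ccl21.

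Astrocyte genes did not move as a group. Of 20, 10 were higher and 10 lower, with a median of 0.00, and Serpina3n was the member at an unadjusted p under 0.05. Gfap, the intermediate filament of astrocytes, was higher by 0.35 (SE 0.19), and the astrocyte calcium-binding gene S100b differed by -0.10 on its brighter probe and by 0.10 on the other. Myelin and oligodendrocyte genes were higher in 27 of 34 cases, by a median of 0.14 (0.09 without sham animal 4). In 3 of the 34 every iTBS animal was above every Sham animal (background 1.69%). They were Olig2, Sox10 and Nkx6-2, transcription factors of the oligodendrocyte lineage, with differences of 0.20, 0.14 and 0.25. Aspa, an enzyme of oligodendrocytes that breaks down N-acetylaspartate, was higher by 0.24 (SE 0.15) with overlapping groups.

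**Figure D2:**
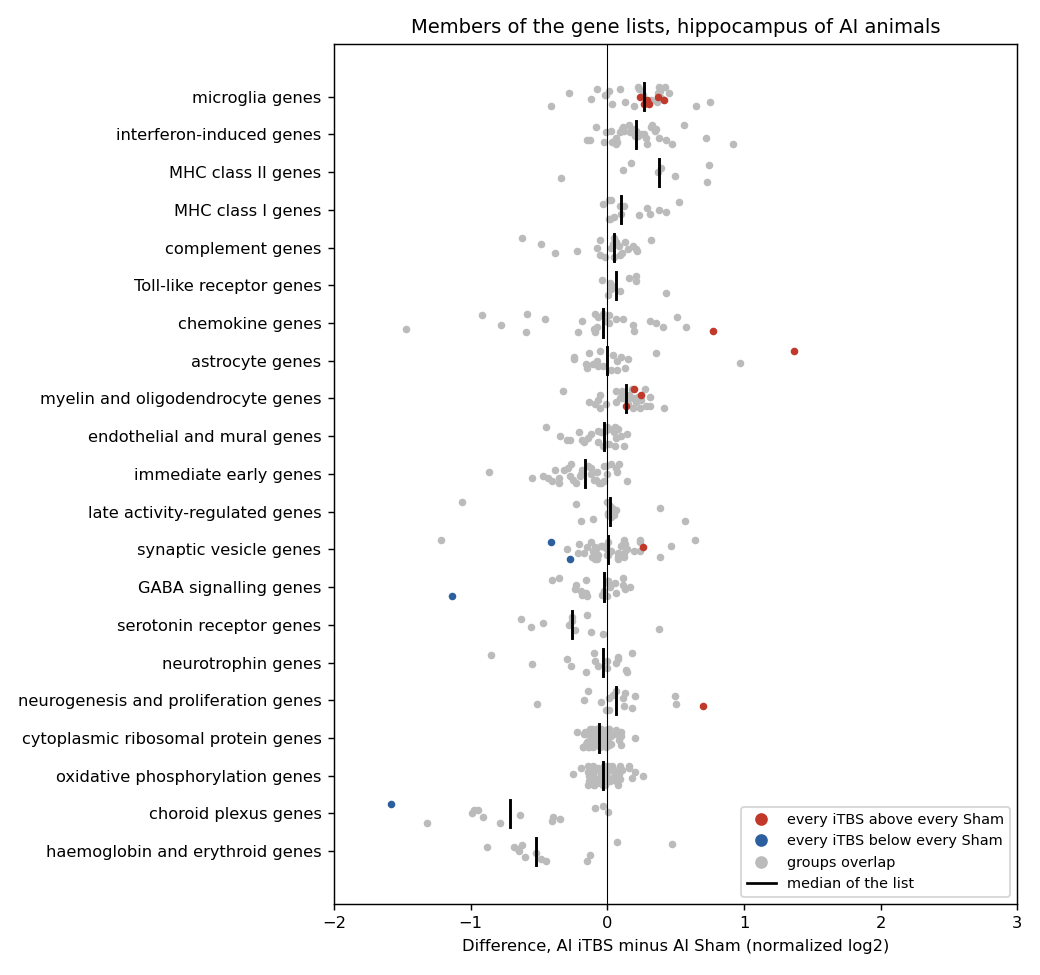
Difference between AI iTBS and AI Sham hippocampus (x axis, normalized log2) for each member of 21 gene lists, with the median of a list as a black line. Red points mark genes with every iTBS animal above every Sham animal and blue points the reverse, and 6 red points fall among the 31 microglia genes.

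Immediate early genes were lower in 29 of 34 cases, by a median of 0.16 in size, with 1 member at an unadjusted p under 0.05. That member, the matricellular gene Ccn1, measured 2.02, 0.13, 0.18 and 0.93 after sham and 0.66, -0.75 and -0.08 after iTBS (difference -0.87, SE 0.40). Arc, which regulates AMPA receptor traffic at synapses, measured 7.61, 7.24, 6.54 and 7.08 after sham and 6.48, 6.83 and 7.10 after iTBS (difference -0.32, SE 0.23). The groups overlapped widely, with iTBS animal 1 the lowest and sham animal 1 the highest of the 7. Klf2, a transcription factor, differed by -0.38 (SE 0.21). Sham animal 1 carried the highest mean level of the list, 3.24 against 2.47 to 2.92 in the other Sham animals and 2.63 to 2.76 after iTBS. Without it the median was -0.04, and within the slide of 5 animals it was -0.02.

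Synaptic vesicle and glutamate receptor genes had medians close to 0. Synaptic vesicle genes were higher in 23 and lower in 21 cases, with a median of 0.00. Unc13a, which primes vesicles for release, measured 2.20, 1.97, 2.55 and 2.25 after sham and 1.72, 1.80 and 1.96 after iTBS, a difference of -0.41 (SE 0.20). Syn3, a synapsin, measured -2.84, -1.94, 0.01 and -2.42 after sham and -3.42, -3.06 and -2.56 after iTBS. It was well above background on 2 Sham arrays and no iTBS array, and sham animal 3 stood above the rest. Among ionotropic glutamate receptor genes, 12 of 17 were lower, by a median of 0.03 in size, and Grin2a and Grin2c, NMDA receptor subunits, differed by -0.28 and 0.17. Metabotropic receptor genes were higher in 7 of 8 cases by a median of 0.05, with Grm3 at 0.12 and Grm2 at 0.16.

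GABA signalling genes were lower in 13 of 23 cases, with a median of -0.02 that was 0.03 without iTBS animal 1. Slc6a13, a GABA transporter found mainly in the meninges, measured 0.85, 0.28, 2.33 and -0.20 after sham and -0.36, -0.36 and -0.24 after iTBS, a difference of -1.13 (SE 0.45) that was 0.63 in size without sham animal 3. Serotonin receptor genes were lower in 10 of 11 cases, by a median of 0.26 in size, with 0 at an unadjusted p under 0.05 and only 6 of 11 well above background on all 7 arrays. Without iTBS animal 1 that median was -0.08. Htr1b differed by -0.26 (SE 0.15), Htr4 by -0.25 (SE 0.19) and Htr2c, which is also abundant in choroid plexus, by -0.24 (SE 0.33), with a second probe at 0.99.

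The remaining neuronal and growth lists gave single genes. Among interneuron and neuropeptide genes, of which 15 of 24 were higher, Cort differed by 0.46 (SE 0.26) and Vip by 0.33. Neurotrophin genes were lower in 10 of 16 cases, with Bdnf at 0.00, Fgf2 at -0.29 and Igf2, a growth factor also made by meninges and choroid plexus, at -0.85 (SE 0.42). Of 17 neurogenesis and proliferation genes 12 were higher, by a median of 0.06 that was -0.06 without iTBS animal 1 and, with 8 of 17 higher, -0.02 within the slide of 5 animals. Cdk1, a kinase of mitosis, measured -0.42, -0.35, -0.36 and -0.45 after sham and 1.17, -0.01 and -0.25 after iTBS, a difference of 0.70 (SE 0.29) drawn mostly by iTBS animal 1. Ccnb1 was higher by 0.50 (SE 0.29), while Mki67 differed by 0.04 and Dcx by 0.13. Of 15 late activity-regulated genes 10 were higher by a median of 0.02, a direction kept under 1 of 4 other scalings and not without iTBS animal 1 (-0.04) or 2 (-0.01). Acan, the aggrecan of perineuronal nets, was higher by 0.57 (SE 0.23), whereas Cartpt differed by -1.06 (SE 0.76). Among CA field markers, the kainate receptor subunit Grik4 was higher by 0.35 (SE 0.14), while Cacng5, a calcium channel subunit at -0.68 (SE 0.31), was well above background on 1 Sham and 0 iTBS arrays. Of the CA field markers 6 of 16 were higher, with a median of -0.05 that was 0.05 without iTBS animal 1 and 0.01 without iTBS animal 3, of dentate gyrus markers 2 of 8 (-0.15, and -0.08 without iTBS animal 1), of cortex markers 3 of 7 (-0.02, a sign kept under 2 of 4 other scalings) and of thalamus and striatum markers 0 of 8 (-0.23, and -0.07 without sham animal 3 or -0.10 without iTBS animal 2).

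Lists of general upkeep differed little. Cytoplasmic ribosomal protein genes were lower in 62 of 77 cases, by a median of 0.06 in size, a direction that turned under 1 of 4 other scalings and within the slide of 5 animals (median 0.02). Rpl17 differed by -0.22 and Rps4x by 0.10. Oxidative phosphorylation genes were lower in 46 of 70 cases by a median of 0.03 in size, with Cox5a at -0.25 and Atp5pb at 0.18. Circadian clock genes had a median of 0.07 (-0.0084 without iTBS animal 3), with Cry1 at 0.17 and Per2 at 0.23, and glucocorticoid target genes one of 0.03, with Sult1a1 at -0.24 and Sgk1 at 0.23. The median of 26 heat shock genes was 0.00, with Hspa1a at -0.21 and Dnajb4 at 0.14. Both the glucocorticoid and the heat shock median changed sign under 2 of 4 other scalings.

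Markers of blood and choroid plexus were mostly lower after iTBS, while those of vessels had a median close to 0. The part of these markers in the values above was not tested. Of 13 haemoglobin and erythroid genes 11 were lower, by a median of 0.53 in size, and 3 were lower at an unadjusted p under 0.05 (background 0.921%). Alas2, the haem synthesis enzyme of red cells, measured 1.33, 1.43, 1.71 and 1.83 after sham and 1.39, 0.98 and 0.30 after iTBS (difference -0.69, SE 0.29). Hba-a1 differed by -0.65 (SE 0.31). Slc4a1, the anion exchanger of red cells, measured -2.75, -1.78, -2.24 and -2.18 after sham and -2.13, -3.65 and -3.57 after iTBS (difference -0.88, SE 0.37). It was well above background on 3 Sham arrays and 1 iTBS array, and on the smaller slide the iTBS animal was the higher, by 0.62. The mean level of the list was 3.55 to 4.10 after sham and 3.80, 3.31 and 3.00 after iTBS. Between the 2 animals of the smaller slide the median was 0.01, and it was -0.78 within the other and -0.25 without iTBS animal 3.

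Choroid plexus genes were lower in 13 of 14 cases by a median of 0.71 in size, the lowest median of the 32 lists. Ttr, the transthyretin carrier of thyroid hormone that is the leading product of choroid plexus, measured 10.70, 7.17, 9.77 and 7.51 after sham and 9.12, 6.30 and 8.22 after iTBS. The Sham animals alone thus spanned a wider range than the difference between groups, and the median of the list was -0.04 without sham animal 1 and -0.11 without iTBS animal 2. Col8a1, a collagen, was lower in every iTBS animal (difference -1.59, SE 0.64), and Aqp1, the water channel, differed by -0.79 (SE 0.48). Endothelial and mural genes were lower in 16 of 26 cases by a median of 0.02 in size, with Eng at -0.35 (SE 0.19) and Acta2 at -0.45 (SE 0.25). Their median was 0.0023 without sham animal 2 and 0.0066 without iTBS animal 2.

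A last list held the genes that the study displays for its living animals, which were picked with these arrays in hand and are no independent set. Of 37 measured members 21 were higher and 16 lower, with a median of 0.06, and in 0 were the groups apart. Hbe2, an embryonic globin, differed by -0.53 (SE 0.27), Rgs4, a brake on G protein signalling, by 0.38 (SE 0.60) and Nxph3, a neurexophilin, by 0.27 (SE 0.76). The study's methods filter probes by analysis of variance before the z-test and its correction. Here its cut-offs were applied to the first arrays with the correction taken over all probes, so the study's own order could give another count. These cut-offs picked 11 probes, 6 higher and 5 lower. They included Ccl3, Lrrc32, Apoc1 and Or2b11 of the genes above and the phagocyte oxidase subunit Ncf4, higher by 0.66. Of the 11, 10 also had an unadjusted limma p under 0.05, which rests on the same arrays and is no separate support.

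To ask whether the iTBS effect in AI rats differed from that in aged-unimpaired (AU) rats, 4 AU Sham and 5 AU iTBS animals were used. They were also 26 to 27 months old and learned the maze as well as young rats. AU sham animal 1 and AU iTBS animals 1 and 2 shared a slide, and no other slide held both AU groups. Outside that slide the AU effect cannot be told apart from a difference between slides. The difference of the 2 effects was tested. No probe passed (0 of 32417, 0%; smallest adjusted p 0.619), and 1.81% had an unadjusted p under 0.05. Apoc1 was the leading named gene among those well above background on every AI and AU hippocampus array used. It stood at -0.98 in AI and 0.62 in AU rats, so that the effects differed by -1.59 (SE 0.35, adjusted p = 1.00). Alox5 was at -0.54 in AI and 0.23 in AU rats (difference of effects -0.77, SE 0.21), and Loxl2, a lysyl oxidase of the extracellular matrix, at -0.27 and 0.45 (difference -0.73, SE 0.20). In the other direction stood Irak4 (0.45 and -0.20, difference of effects 0.65, SE 0.21), the carbonic anhydrase Car6 (0.24 and -0.45, difference 0.69, SE 0.24) and the RNA-binding gene Hnrnpa3 (0.34 and -0.13, difference 0.48, SE 0.17). Of the 5 further Hnrnpa3 probes, differences in AI rats ran from -0.04 to 0.31.

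For the immune lists the AI and AU effects lay side by side without a test of the lists. The median for microglia genes was 0.27 in AI and 0.12 in AU rats, and 1 of 31 members, Trem2 with 0.37 and 0.06, differed between them at an unadjusted p under 0.05 (difference of effects 0.30, SE 0.14). Interferon-induced genes had medians of 0.21 and 0.20, and MHC class II genes of 0.38 and 0.24. Choroid plexus genes had -0.71 in AI and 0.59 in AU rats, with 0 of 14 members differing at an unadjusted p under 0.05. In AU iTBS animal 2 the mean level of choroid plexus genes reached 2.99, against -0.78 to 0.46 in the other 4 AU iTBS animals.

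The parietal cortex of the same 7 animals was used to ask whether the response differed between regions. The within-animal difference of hippocampus and cortex was tested, and again no probe passed (0 of 33719, 0%; smallest adjusted p 1.00), with 1.9% at an unadjusted p under 0.05. The median of MHC class II genes had opposite signs in the regions. It was 0.38 in hippocampus, with 7 of 8 higher, and -0.74 in cortex, with 2 of 8 higher. In 4 members the unadjusted p was under 0.05 for the difference between regions. Cd74 was higher by 0.73 in hippocampus and differed by -0.75 in cortex (difference of effects 1.48, SE 0.57), and RT1-Da gave 0.75 and -0.75 (difference 1.49, SE 0.61). Ciita, the master regulator of class II genes, gave 0.39 and -0.74 (difference 1.13, SE 0.40) and RT1-Db1 gave 0.37 and -0.60 (difference 0.97, SE 0.36). RT1-Bb also had opposite signs, at 0.50 and -0.76 (difference 1.26, SE 1.53). RT1-DMa (0.17 and 0.23), RT1-DMb (0.11 and 0.06) and RT1-DOb (-0.34 and -0.79) had the same sign in both regions. Without sham animal 2 and iTBS animal 2, whose cortex labels are in doubt, the list medians were 0.44 in hippocampus and -0.58 in cortex, with 3 members at that p. The differences of effects were then 1.49 for Cd74 (SE 0.69), 1.58 for RT1-Da (SE 0.75), 1.08 for RT1-Db1 (SE 0.43) and 0.67 for Ciita (SE 0.46), Ciita being the member no longer at that p. Without iTBS animal 2 alone the cortex median was -0.25 and RT1-Db1 was the remaining member at that p. These 4 genes share their regulation and are not independent measurements.

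Other groups ran together or apart between the regions. Microglia genes had a median of 0.23 in cortex, with 22 of 31 higher, beside 0.27 in hippocampus, and 0 members differed between regions at an unadjusted p under 0.05. Trem2 was higher by 0.48 in cortex and Serpina3n by 1.32, values that became 0.35 and 1.81 without sham animal 2 and iTBS animal 2. For Serpina3n the cortex value was 0.78 without sham animal 2 alone and 2.35 without iTBS animal 2 alone. Without sham animal 2 and iTBS animal 2 the microglia median in cortex was 0.15, with 19 of 31 higher, and 1 member was at that p. Myelin genes were higher in 5 of 34 cases in cortex, with a median of -0.21, beside 27 of 34 in hippocampus, and 0 members differed at an unadjusted p under 0.05. Ribosomal protein genes were higher in 76 of 77 cases in cortex by a median of 0.21, also with 0 members at that p. The count of higher genes was 60 of 77 without sham animal 2 and iTBS animal 2, with a median of 0.07, and 39 of 77 without iTBS animal 2 alone. Without sham animal 2 alone it was 76 of 77. In that setting 7 of 77 ribosomal and 5 of 34 myelin genes were at that p, beside 1585 of all 33719 probes. Of myelin genes 6 of 34 were higher in cortex without sham animal 2 and iTBS animal 2, with a median of -0.18. Choroid plexus and erythroid genes had negative medians in both regions, -0.88 and -0.34 in cortex, and -0.56 and -0.80 there without the same 2 animals.

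Among single genes, Cldn19, a tight junction gene, had the smallest p for the difference between regions, with 0.13 in hippocampus and -0.79 in cortex (difference of effects 0.92, SE 0.18). Upk1a gave 0.10 and -1.51 (difference 1.61, SE 0.42) and the kinase gene Mast4 0.26 and -0.31 (difference 0.57, SE 0.17). On the lower side stood Syce3 (-0.11 and 1.00), the cardiac myosin gene Myh6 (-0.21 and 0.55) and Sfrp2, a secreted Wnt modulator (-0.51 and 0.58), with differences of effects of -1.11, -0.76 and -1.09. Ccl21, near background and so outside this ranking, had a smaller p than these lower genes. It gave -1.47 and 1.11 (difference of effects -2.58, SE 0.77, and -2.2 without sham animal 2 and iTBS animal 2). Apoc1, lower by 0.98 in hippocampus, differed by -0.20 in cortex (difference of effects -0.77, SE 0.26). Without sham animal 2 and iTBS animal 2 the difference of effects was 1.01 for Cldn19, 1.57 for Upk1a, 0.51 for Mast4, -0.73 for Syce3, -0.58 for Myh6, -1.31 for Sfrp2 and -0.48 for Apoc1. Those of Syce3 and Apoc1 were then no longer at an unadjusted p under 0.05.

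**Figure D3:**
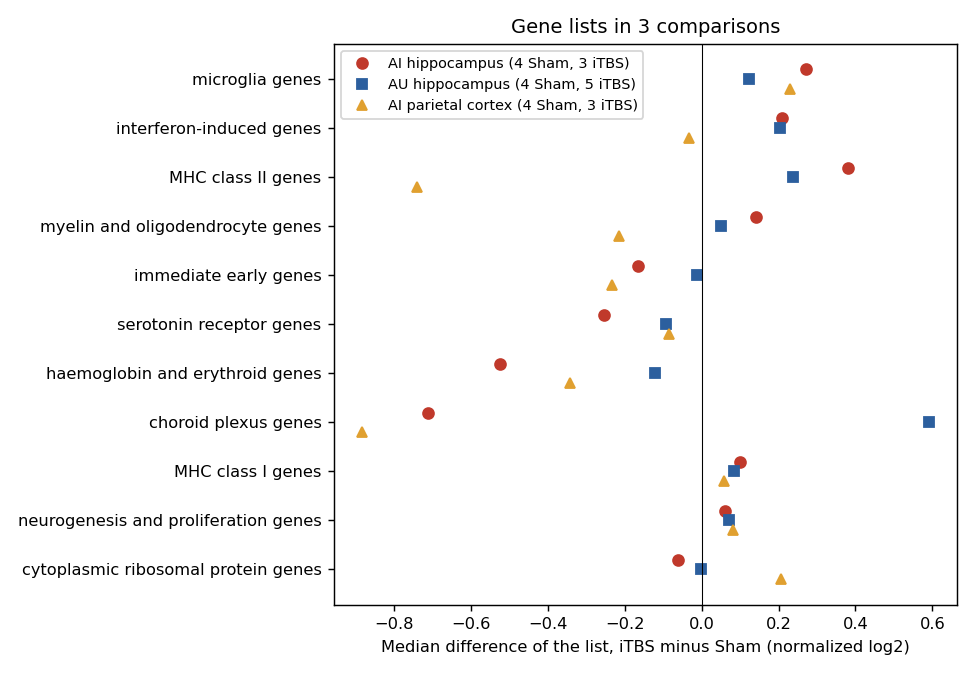
Median difference between iTBS and Sham (x axis, normalized log2) of 11 gene lists in AI hippocampus (circles), AU hippocampus (squares) and AI parietal cortex (triangles). MHC class II genes lie at 0.38 in AI hippocampus and -0.74 in AI cortex, and choroid plexus genes at -0.71 in AI and 0.59 in AU hippocampus.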

How the data were processed

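Cy3-labelled RNA was hybridized to one-color Agilent rat arrays and scanned. Per the file headers, the deposited signal intensities were background-subtracted and detrended by Feature Extraction 12.0.3.1, with no scaling between arrays. The authors also deposited a z-score of log signal for each probe on each array, a score that had a correlation of at least 0.999995 with the z-score recomputed from the intensities. Control and outlier spots were left out, spots of a probe were averaged, and the log2 intensity was z-scored per array and brought back to log2 units with the arrays' average SD, 4.086. Probes well above background in at least 3 of 24 hippocampus arrays (1 per animal, 6 groups) were fitted with group means in limma 3.58.1 (R 4.3.3, two-sided, Benjamini-Hochberg, adjusted p under 0.05). The 6 groups were the iTBS and sham animals of AI and AU rats, both of 26 to 27 months, and of young rats of 6 to 7 months. They shared 1 estimate of the spread of each probe. The AI effect was compared with the AU effect by an interaction contrast, and with cortex by the within-animal difference between regions. A gene was represented by its brightest probe. Of all probes 46.3% carried a gene name here, matched through RefSeq accessions, and the others are unnamed.

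Named genes were the 10 with the smallest p in each direction among those well above background on all 7 arrays with separate groups, the 2 leading members of each list, 8 genes the study displays, 3 in each direction of each difference of effects, and up to 3 in each direction detected in 1 group. For a difference of effects, only genes well above background on every array of the groups compared were ranked. Further list members were named after their values were seen. The comparison, the lists and the rules were chosen with earlier results of these data known, and lists received no test. Animals were separate, and their number limits the precision. For normexp the median spot intensity was used. The fit was checked on simulated data. Values of some list members are not reported here.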

Additional observations from a re-analysis of the deposited data

Results flagged for a closer look

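In 7 of 132 results checked, 1 of the 4 Sham animals lay far from the others, with a gap that took more of the group's range than Dixon's 95% critical value allows. Chance marks about 1 in 20 such groups. Sham animal 1 stood apart for Or2b11 (gap 0.931 of the range), for the serotonin receptor Htr4 (0.899) and for the mean level of glucocorticoid target genes (0.872). Sham animal 2 stood apart for the ribosomal protein gene Rpl17 (0.838) and for the mean level of metabotropic glutamate receptor genes (0.866). Sham animal 3 stood apart for Cacng5 (0.913), and sham animal 4 for Ccl21 (0.86), both genes near background.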

How the results depend on the processing

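With 4 and 3 animals, differences of the usual size were not detectable, and dim genes such as Ccl21 and Syn3 rest on arrays near background. The cause of each shift below was not tested, apart from those that follow from fewer or more probes or animals. The count of 0 called probes became 1 after normexp background correction (an unnamed probe). It was 11 under the cut-offs of the study's selection rule, corrected over all probes. Without the filter on dim probes it was 5 (Gucy2c and 4 unnamed probes, well above background on 0 to 2 of 24 arrays). The 710 probes at an unadjusted p under 0.05 became 1338 without that filter and 272 among probes with a mean z-score above 0, and ranged from 555 to 1121 with 1 animal left out. The 817 probes with separate groups became 394 among probes with a mean z-score above 0, and 1237 to 3494 with 1 animal left out; this count uses no fit, so blocks gave it no separate value.

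The comparison with AU rats had 2 called probes without the filter. Its 586 probes at an unadjusted p under 0.05 became 1064 without the filter and 1858 with slide as a block, and ranged from 505 to 974 with 1 animal left out. The 639 of the comparison with cortex became 1062, 997 and 563 to 1585, the highest without sham animal 2, and 751 without animal 2 of both AI groups, an alternative chosen after seeing the data. None was called there in any of these settings.

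Replicate numbers did not pair the animals: deviations of same-numbered animals correlated at 0.383, 0.097 and -0.004, the first pair sharing a slide. With the replicate block, 0 probes were called and 1193 had an unadjusted p under 0.05.

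After normexp the medians were -0.083 for astrocyte, -0.30 for ribosomal protein and -0.18 for oxidative phosphorylation genes. Between the 2 animals of the smaller slide, an alternative chosen after seeing the data, they were -0.25 for CA field markers, 0.0105 for haemoglobin, 0.90 for MHC class II, 0.39 for MHC class I, -0.10 for astrocyte, -0.57 for immediate early, -0.11 for clock, -0.27 for ribosomal protein and -0.17 for oxidative phosphorylation genes. The interneuron median was 0.0035 to 0.093 with 1 animal left out.

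With 1 animal left out, the median of 16 of 32 lists turned sign. Slides aside, 8 of 1770 values of named genes under alternatives turned direction, each with 1 animal left out. Over the animals left out, Hspa1a ranged from -0.341 to 0.0031 (highest without sham animal 1), Nxph3 from -0.078 to 0.684 (negative without sham animal 1 and, at -0.018, sham animal 3) and Cldn19 from -0.075 to 0.282 (lowest without iTBS animal 1). Without iTBS animal 3 the sign turned for Grm3 (range -0.020 to 0.246), Irf7 (-0.017 to 0.563), Htr2c (-0.631 to 0.082) and Syce3 (-0.281 to 0.014).

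Within slides, also chosen after seeing the data, 4 of 100 named genes turned on the slide of 5 animals: Hspa1a to 0.039, Irf7 to -0.012, S100b to 0.016 and Arc to 0.0084. Between the 2 animals of the smaller slide 11 of 100 turned: Lct to 0.045, Rgs9 to 0.33, Slc4a1 to 0.62, Alas2 to 0.062, Cd55 to 0.56, Ccl21 to 0.30, Gfap to -0.0089, Sult1a1 to 0.022, Sgk1 to -0.098, Htr2c to 0.0093 and Syce3 to 0.092.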
